A study of Rattus norvegicus with 10 samples.

Results

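The purinergic and adenosine receptors described here are 10 genes: the ATP-gated channels P2rx2, P2rx3, P2rx4, P2rx5, P2rx6 and P2rx7, the ADP receptor P2ry1, and the adenosine receptors Adora1, Adora2a and Adora2b. Members were chosen by gene symbol: all probe sets for which the platform's annotation gives 1 of these symbols and no other, which are 16 of the 31042 probe sets of the array that are not controls. The 10 genes stand among 14217 named by such probe sets. Of the 16 probe sets, 9 were bright enough to be tested between the strains. These 9 cover 8 genes, since P2rx5 and P2rx7 had dim probe sets only.

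The RNA came from the nucleus tractus solitarii (NTS), where baroreceptor, chemoreceptor and other visceral afferents end in the brainstem. The 5 SHR arrays hold RNA of male spontaneously hypertensive rats, an inbred model of genetic hypertension, and the 5 WKY arrays hold RNA of male Wistar-Kyoto rats, its usual normotensive control. All animals were 10 to 13 weeks old, and the labels name no treatment. The design text treats each array as an independent biological replicate, while the sample descriptions give 5 animals for a sample, so an array may hold 1 animal or a pool, and the p-values speak for the spread among these arrays only.

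ATP is released in the NTS by neurons and astrocytes and is broken down outside the cell to ADP, AMP and adenosine. P2X receptors are cation channels that ATP opens directly, each built of 3 subunits that may differ, whereas P2Y and adenosine receptors act through G proteins. In rats, injection of ATP or adenosine analogues into the NTS is known to change blood pressure and heart rate.

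Values are signals of Affymetrix Rat 230 2.0 probe sets on a linear scale, which the authors scaled to a common trimmed mean in each array. Differences are SHR minus WKY on log2(signal + 16), a scale that understates the change of dim probe sets, and each ratio below is on this scale too. Signals of different probe sets cannot be ranked against each other, so no order of the genes is given. The median signal of an array was highest in SHR 3 and SHR 2 (49.8 and 49.4) and lowest in WKY 5 and WKY 4 (39.6 and 39.9). Of the tested receptor probe sets, that of P2rx3 had its ends on these 4 arrays. Where leaving out SHR 2 and SHR 3, or the median signal as a covariate, moved the difference of a tested receptor probe set by over 1.5 times, that value stands beside it. Array medians were 44.2 to 49.8 in SHR and 39.6 to 45.7 in WKY, so the covariate is partly confounded with strain. Where a difference shrinks or turns with it, an effect of the array and one of the strain cannot be told apart. SHR 2 and SHR 3 were the highest of the 10 arrays on the tested probe sets of P2rx3, P2rx6 and Adora1. They were the lowest of SHR on P2rx2 1387578_a_at. Leaving them out therefore had to shrink or turn these differences, whatever their cause. WKY 4 and WKY 5 were not left out together. Precision is limited by the number of arrays. Fewer cells of a type and less RNA per cell cannot be told apart in this tissue RNA.

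None of the 9 receptor probe sets passed the test, at a limma adjusted p below 0.05 over the 18846 probe sets tested, of which 4.26% passed. At an unadjusted p below 0.05 it was 1 of the 9, on P2rx2, against 21.0% of all probe sets tested. The 5 SHR values and the 5 WKY values overlapped for each of the 9 probe sets, while over all probe sets tested the groups did not overlap for 6.13% (3.22% higher and 2.91% lower in SHR). The receptor differences ran from -0.38 to 0.25 log2 units, 5 above 0 and 4 below, with a median of 0.080 against 0.016 over all probe sets tested. Their median absolute difference was 0.16 and their median standard error 0.12, against 0.12 and 0.10 over all.

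P2rx2 and P2rx3 encode the channel subunits of vagal sensory neurons, whose central endings lie in the NTS, and P2rx2 is also made by NTS neurons in the rat. Which cells gave the P2rx2 and P2rx3 signals cannot be told from this tissue RNA. Both genes had a probe set with differences that moved with particular arrays. P2rx2 was read by 3 probe sets, designed as reading more than 1 transcript form of the gene (suffix _a) or as having probes that may match other sequences (suffix _x). Probe set 1387578_a_at of P2rx2 had signals of 47.6, 26.9, 36.2, 39.9 and 38.6 on SHR arrays 1 to 5, compared with 70.2, 48.0, 32.3, 62.3 and 61.9 on WKY arrays 1 to 5. WKY 1, WKY 4, WKY 5 and WKY 2 lay above every SHR array, and WKY 3 lay below 4 of the 5. The log2 difference was -0.38 ± 0.16 (SE; adjusted p = 0.169), the largest among the 9, with an SHR to WKY ratio of 0.768 and a 95% interval of 0.612 to 0.964. Without WKY 3, the lowest of WKY, the difference had to grow, and it was -0.51 and passed (adjusted p = 0.0488). With the median signal as a covariate it was -0.11. It was -0.26 without SHR 2 and SHR 3 (adjusted p = 0.473). Probe set 1369475_x_at of P2rx2 lists the same GenBank sequence as its source and had signals of 61.5, 51.8, 54.1, 56.3 and 44.7 on SHR arrays 1 to 5, compared with 57.6, 47.8, 56.9, 62.8 and 52.3 on WKY arrays 1 to 5. Its groups lay over each other, with a log2 difference of -0.038 ± 0.11 (adjusted p = 0.874) and a 95% interval of the ratio from 0.835 to 1.14. In 6 of the 10 arrays these 2 probe sets of P2rx2 lay on the same side of their strain means. The differences of these 2 P2rx2 probe sets were unlike in size, but their 95% intervals overlapped, and they were not tested against each other.

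The subunit P2X3, a marker of nociceptive and visceral sensory neurons, is encoded by P2rx3. Its brighter probe set, 1368667_at, had signals of 36.3, 67.9, 68.3, 49.5 and 42.7 on SHR arrays 1 to 5, compared with 50.7, 49.8, 47.7, 31.4 and 29.6 on WKY arrays 1 to 5. SHR 2 and SHR 3 were the highest and WKY 5 and WKY 4 the lowest, the same arrays that stood at the ends of the median signal, and the other 6 arrays lay between 36.3 and 50.7 in both strains. P2rx3 had a log2 difference of 0.25 ± 0.16 (adjusted p = 0.394), with a 95% interval of the ratio from 0.940 to 1.50. Without SHR 2 and SHR 3 the difference was 0.039, and with the median signal as a covariate it turned to -0.19. The second P2rx3 probe set, 1388077_a_at, reached the threshold of brightness on 4 arrays only, with 22.4 to 57.1 in SHR and 10.4 to 39.9 in WKY. Its difference of 0.34 turned to -0.15 with the covariate and was 0.19 without SHR 2 and SHR 3. The 2 probe sets of P2rx3 lay on the same side of the strain mean in 8 of 10 arrays, the most among the 7 pairs of receptor probe sets that share a gene.

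For sensory ganglion markers, 2 of the 12 probe sets on the list were bright enough to be tested, those of Prph (mean signal 813 in SHR and 783 in WKY) and Avil (40.1 and 43.0). Scn10a, Trpv1, Calca, Isl1 and Pou4f1 had only dim probe sets. Over the 2 tested probe sets the summed signal was 744 to 914 in SHR and 730 to 960 in WKY, most of it Prph.

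**Figure D1:**
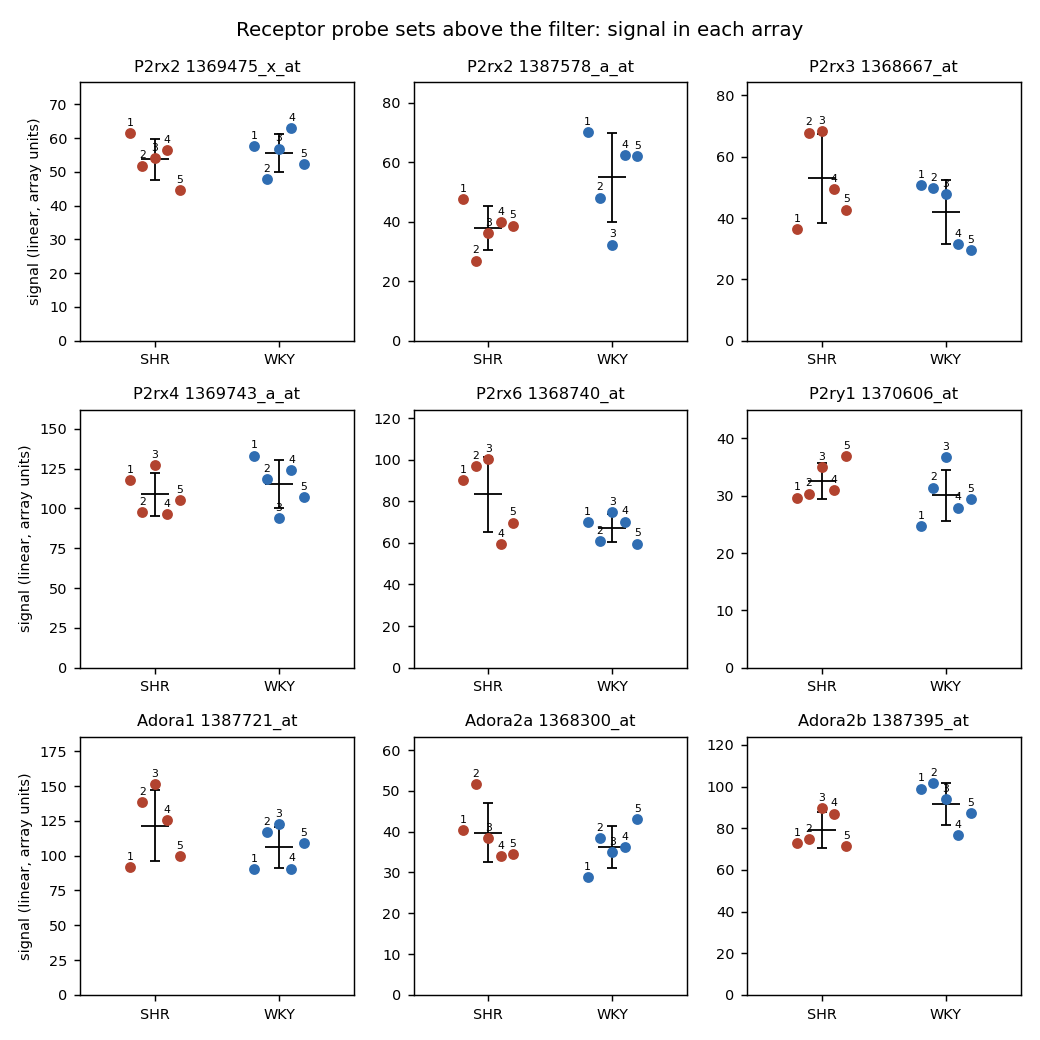
Signal of the 9 receptor probe sets that were tested, with SHR left and WKY right in each panel; the points are arrays with their replicate number, and bars show the mean and SD (n = 5 in each strain). The strains overlap in all 9 panels. SHR 2 and SHR 3 lead in P2rx3 and Adora1, and with SHR 1 in P2rx6.

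P2rx4 and P2rx7 encode the ATP channels best known from microglia and macrophages, where P2X4 is linked to pain signalling and P2X7, which needs high ATP, to release of interleukin-1β. They are next to each other in the rat genome by the RefSeq table of assembly GRCr8. P2rx4 (probe set 1369743_a_at) had signals of 118, 97.7, 127, 96.2 and 105 on SHR arrays 1 to 5, compared with 133, 118, 94.1, 124 and 107 on WKY arrays 1 to 5. The highest and the lowest array were both WKY. Its log2 difference was -0.071 ± 0.099 (adjusted p = 0.725), and the 95% interval of the ratio, 0.824 to 1.10, was among the narrowest of the receptors. P2rx7 (1387718_at) was below the filter, with signals of 33.8, 30.1, 41.0, 16.5 and 22.9 in SHR and 27.9, 29.6, 36.4, 25.7 and 22.8 in WKY. SHR held both its highest and its lowest value. The difference of P2rx7 was -0.0069, with no test, and it ran from -0.28 with the covariate to 0.10 without SHR 4.

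Microglia markers moved between the strains beside these genes. Of 14 marker probe sets tested, 5 were lower in SHR, those of Aif1 (1368558_s_at), Lyz2, C1qa, C1qb and Ctss, and 0 were higher (the background is 2.20% lower and 2.06% higher over all probe sets). The list did not move as one. The other tested Aif1 probe set, 1369489_at, averaged 84.8 ± 28.1 in SHR, compared with 53.7 ± 14.4 in WKY (log2 difference 0.51; adjusted p = 0.124), opposite in sign to the first, and Cx3cr1 differed by 0.19 (adjusted p = 0.510). The other 12 probe sets had differences below 0. The summed signal of the 14 was 2750 to 2839 in SHR and 3248 to 3545 in WKY, without overlap. Much of that sum came from called probe sets, with means of 1008 in SHR and 1222 in WKY for Ctss and 431 and 584 for C1qa. The sum therefore largely restates the calls. On the listed probe sets below the filter, Cd68 differed by 0.70 and Trem2 by 0.34 and -0.063, with no test. P2ry12, the ADP receptor that marks resting microglia and is on that list too, averaged 211 ± 23.1 in SHR, compared with 239 ± 20.2 in WKY (SD, n = 5), on its brighter probe set, a log2 difference of -0.17 ± 0.081 (adjusted p = 0.240) that was -0.019 with the median signal as a covariate and -0.090 without SHR 2 and SHR 3. P2ry6, a UDP receptor of phagocytes, averaged 62.7 ± 23.1 in SHR, compared with 80.3 ± 5.71 in WKY (-0.35 ± 0.18; adjusted p = 0.271). SHR 5, at 25.7, stood below the other SHR arrays at 61.6 to 88.5, and without it the P2ry6 difference was -0.14 (adjusted p = 0.453). The part of the microglia markers in the P2rx4 value was not tested.

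P2rx6 encodes a subunit that forms few channels alone and joins P2X2 or P2X4. Probe set 1368740_at of P2rx6 had signals of 90.3, 97.1, 100.4, 59.4 and 69.7 on SHR arrays 1 to 5, compared with 69.9, 60.9, 74.9, 70.2 and 59.7 on WKY arrays 1 to 5. SHR 1, SHR 2 and SHR 3 lay above all WKY arrays, while SHR 4 was the lowest of the 10. The spread was wider in SHR, with 83.4 ± 17.9 on average, compared with 67.1 ± 6.55 in WKY (SD, n = 5). The log2 difference of P2rx6 was 0.24 ± 0.12 (adjusted p = 0.268), with a 95% interval of the ratio from 0.989 to 1.41. Leaving out SHR 4 had to enlarge the difference, which was then 0.34 (adjusted p = 0.106). It was 0.090 without SHR 2 and SHR 3, and 0.052 with the median signal as a covariate.

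P2ry1, the Gq-coupled ADP receptor of neurons and astrocytes, was at the edge of the filter: 5 arrays reached it, 1 of SHR and 4 of WKY, because the threshold lies at the 40th percentile of each array (31.3 to 35.9 in SHR and 26.3 to 32.0 in WKY). Its signals were 29.7, 30.4, 35.0, 30.9 and 36.9 on SHR arrays 1 to 5, compared with 24.7, 31.4, 36.8, 27.9 and 29.4 on WKY arrays 1 to 5. The ranges of P2ry1 nearly coincided at the upper end. The log2 difference was 0.080 ± 0.13 (adjusted p = 0.759), and its sign turned with quantile normalization (-0.053). It was 0.050 with the median signal as a covariate, and ran from 0.037 (without WKY 1) to 0.13 (without WKY 3) with 1 array left out.

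The adenosine receptors had differences on both sides of 0, and none passed. Adora1 encodes the A1 receptor, which lowers cyclic AMP through Gi and reduces transmitter release. Its brighter probe set, 1387721_at, had signals of 91.8, 139, 152, 126 and 99.6 on SHR arrays 1 to 5, compared with 90.4, 117, 123, 90.7 and 109 on WKY arrays 1 to 5. SHR 3, SHR 2 and SHR 4 were above every WKY array, and SHR 1 and SHR 5 were below the WKY median of 109. Adora1 had a log2 difference of 0.16 ± 0.12 (adjusted p = 0.472), with a 95% interval of the ratio from 0.936 to 1.34. The difference was -0.0034 without SHR 2 and SHR 3 and -0.069 with the median signal as a covariate, and leaving out SHR 3 alone gave 0.085.

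Adora2a encodes the A2a receptor, which raises cyclic AMP through Gs and is known in the rat NTS for its effect on baroreflex outflow. Probe set 1368300_at had signals of 40.4, 51.6, 38.4, 34.0 and 34.5 on SHR arrays 1 to 5, compared with 28.9, 38.5, 34.9, 36.1 and 43.1 on WKY arrays 1 to 5. SHR 2 was the highest and WKY 1 the lowest, and the other 8 arrays were mixed. The log2 difference of Adora2a was 0.090 ± 0.13 (adjusted p = 0.727; 95% interval of the ratio 0.884 to 1.28), and its sign turned with quantile normalization (-0.026). Without SHR 2 it was 0.018, without WKY 1 0.036, and without SHR 2 and SHR 3 0.0035. The second probe set, 1368301_at, lay between 2.05 and 5.95 in SHR and between 1.48 and 6.74 in WKY.

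Adora2b encodes the A2b receptor, the Gs-coupled adenosine receptor of low affinity. Its signals were 72.8, 74.8, 89.6, 87.0 and 71.4 on SHR arrays 1 to 5, compared with 99.0, 102, 93.8, 76.6 and 87.1 on WKY arrays 1 to 5. SHR 5, SHR 1 and SHR 2 lay below every WKY array, and WKY 2, WKY 1 and WKY 3 lay above every SHR array. The signal averaged 79.1 ± 8.50 in SHR, compared with 91.7 ± 10.1 in WKY (SD, n = 5), a log2 difference of -0.18 ± 0.096 (adjusted p = 0.302), with a 95% interval of the ratio from 0.768 to 1.02. This sign held in all 23 alternatives, with values from -0.33 (with the median signal as a covariate) to -0.12, and none of them passed. The signs of P2rx4, P2rx6 and P2rx2 1387578_a_at also held in every alternative in which they were tested. Alternatives that changed only the filter, variance model, replicate block or choice of probe sets left each difference as it was. No sign could turn in those.

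**Figure D2:**
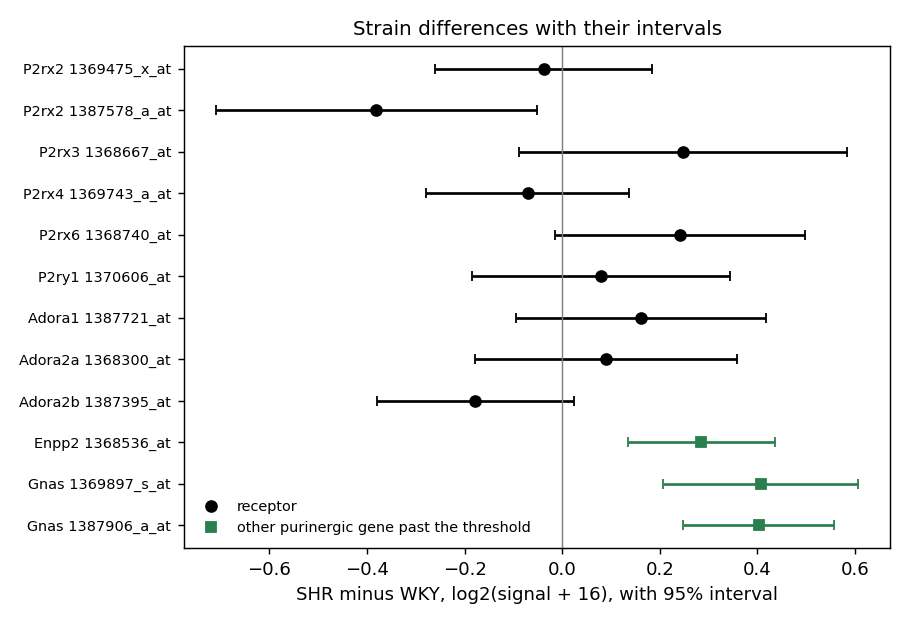
Difference of SHR minus WKY on log2(signal + 16) with its 95% interval for the 9 receptor probe sets (circles) and, below them, the 3 other purinergic probe sets that passed (squares). The interval of P2rx2 1387578_a_at lies below 0 before adjustment over all probe sets; the intervals of the other 8 receptor probe sets include 0.

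The 7 receptor probe sets below the filter had no test in the fit of bright probe sets. Among them 6 had a difference above 0, as had 71.8% of the 12196 probe sets below the filter, so dim probe sets in general leaned to SHR (median 0.094 log2 units, and 0.17 for the 7 receptor probe sets). Both probe sets of P2rx5, a channel subunit with small currents in the rat, were below the 40th percentile on all 10 arrays. On 1369673_at the signals of P2rx5 were 12.8, 20.9, 24.1, 20.6 and 4.58 on SHR arrays 1 to 5, compared with 2.68, 4.03, 11.5, 10.7 and 3.31 on WKY arrays 1 to 5. Of the SHR arrays, 4 lay above all WKY arrays and SHR 5 lay among them. The log2 difference was 0.52 ± 0.18 with no filter (limma adjusted p = 0.164 over 31042 probe sets). With an offset of 1 it was 1.25, since the size of so dim a difference rests on the offset. Without SHR 5, the lowest of SHR, the difference had to grow, and with no filter it was 0.67 and passed (adjusted p = 0.0470). It was 0.27 with the median signal as a covariate (adjusted p = 0.806) and 0.33 without SHR 2 and SHR 3 (adjusted p = 0.467). The other P2rx5 probe set, 1369674_at, had 15.9, 7.31, 25.0, 10.8 and 26.6 on SHR arrays 1 to 5, compared with 14.5, 13.1, 7.39, 5.59 and 4.47 on WKY arrays 1 to 5. Here SHR 5 was the highest array and SHR 2 the lowest of SHR, whereas on the first probe set SHR 5 was the lowest of SHR and SHR 2 the second highest. The difference was 0.39 ± 0.18 (adjusted p = 0.280 with no filter). The 2 probe sets of P2rx5 lay on the same side of the strain mean in 3 of 10 arrays.

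The remaining dim probe sets covered genes that had a brighter one. P2rx2 1369474_a_at averaged 24.6 ± 7.58 in SHR, compared with 19.6 ± 3.30 in WKY (SD, n = 5). Adora1 1370584_a_at averaged 22.7 ± 7.48 in SHR, compared with 18.9 ± 2.53 in WKY. Both differences were above 0, at 0.17 and 0.13, but that of Adora1 turned to -0.0061 with quantile normalization and was 0.022 without SHR 4. For P2rx2 this is opposite in sign to the brighter probe sets.

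**Figure D3:**
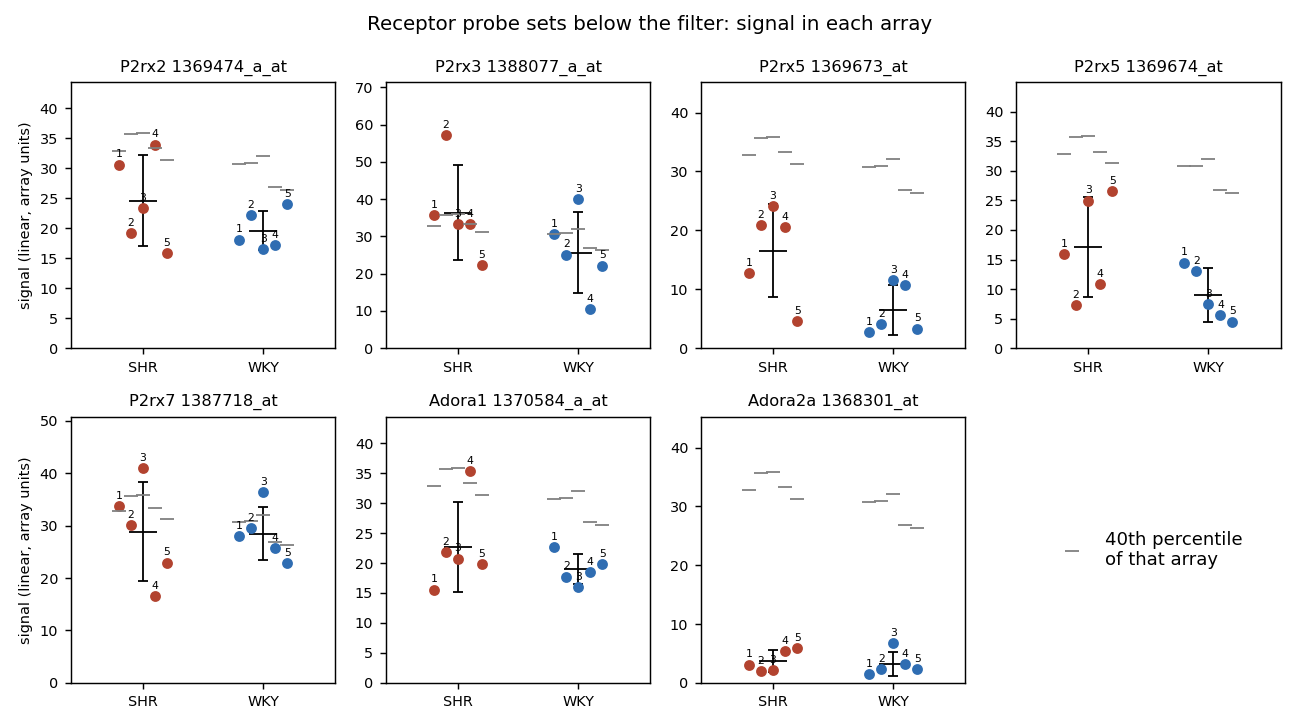
Signal of the 7 receptor probe sets below the filter, with SHR left and WKY right, each point an array with its replicate number, bars for mean and SD (n = 5 in each strain) and grey dashes at each array's own 40th percentile. Both P2rx5 probe sets and Adora2a 1368301_at stay under the dashes on all 10 arrays.

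Among the other genes of purinergic signalling, 54 probe sets of 41 genes were tested, and 3 were higher and 0 lower in SHR, or 5.56%, near the background of 4.26%. The median difference of these 54 was -0.064. The 3 probe sets were 2 of Gnas and 1 of Enpp2. Gnas encodes the alpha subunit of Gs, through which the A2a and A2b receptors and many others raise cyclic AMP. On 1387906_a_at its signals were 2486, 2494, 2714, 2553 and 2747 on SHR arrays 1 to 5, compared with 1745, 1731, 1998, 2122 and 2262 on WKY arrays 1 to 5. All SHR arrays lay above all WKY arrays, with a log2 difference of 0.40 ± 0.073 (adjusted p = 0.00371) that passed in each of the 22 alternatives in which it was tested. On 1369897_s_at, a probe set that may read transcripts of other genes, Gnas had 4628, 6016, 6878, 6113 and 5195 on SHR arrays 1 to 5, compared with 3913, 4656, 4749, 3803 and 4493 on WKY arrays 1 to 5. SHR 1 lay among the WKY arrays there. The difference was 0.41 ± 0.095 (adjusted p = 0.0202), but it was -0.023 with quantile normalization, and the call ended with the median signal as a covariate (adjusted p = 0.498) and without SHR 2 and SHR 3 (adjusted p = 0.132). It passed in 15 of 23 alternatives. The third Gnas probe set was dim and differed by 0.041.

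Enpp2, an ectoenzyme whose main product is lysophosphatidic acid, averaged 748 ± 50.6 in SHR, compared with 612 ± 62.3 in WKY (SD, n = 5; log2 difference 0.28 ± 0.071; adjusted p = 0.0306), and this call ended in 10 of 23 alternatives. Enpp2 is also a marker of the choroid plexus, and of the 5 choroid plexus probe sets tested, Enpp2 and Sostdc1 were higher and 0 lower. The background over all probe sets tested is 2.06% higher and 2.20% lower. The summed signal of the 5 choroid plexus probe sets was 903 to 1049 in SHR and 676 to 948 in WKY, most of it Enpp2 itself. Without Enpp2 it was 191 to 248 in SHR and 136 to 320 in WKY, an overlap, with the upper end at WKY 1. All 5 tested choroid plexus probe sets had differences above 0 (median 0.24), as had 54.0% of all probe sets tested. Ttr, the main choroid plexus transcript on the list, averaged 58.1 in SHR, compared with 67.0 in WKY, where WKY 1 alone had 182. Its medians lay the other way, at 48.9 in SHR and 35.8 in WKY, and its log2 difference was 0.068 (adjusted p = 0.930). The Sostdc1 call held in 10 of 22 alternatives. On the listed choroid plexus probe sets below the filter, differences went both ways: Kl -0.21, Otx2 -0.41 and 0.017, and Kcne2 -0.26 and 0.090. The cell type behind the Enpp2 difference was not tested.

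By role, none passed among 4 probe sets of other P2Y receptors, all with differences below 0 (P2ry12, P2ry6 and P2ry14), 10 of adenosine metabolism, 6 of nucleoside transporters and 7 of ATP release. The smallest p among adenosine enzymes was that of the nucleotidase gene Nt5c2 (1391413_at, -0.38 ± 0.13; adjusted p = 0.107), whose other probe set differed by 0.18. Adk, the kinase that clears adenosine, differed by -0.16 and -0.13 on its 2 probe sets (adjusted p = 0.196 and 0.332). Among transporters it was that of Slc29a1, the equilibrative nucleoside transporter ENT1 (0.12 ± 0.10; adjusted p = 0.536). Among genes of ATP release it was that of Lrrc8a, of the volume-regulated anion channel (1382920_at, -0.27 ± 0.084; adjusted p = 0.0846). The other tested Lrrc8a probe sets differed by -0.090 and -0.042 (adjusted p = 0.394 and 0.944). Nt5e, the ecto-5'-nucleotidase that makes adenosine outside the cell, averaged 61.0 ± 5.93 in SHR, compared with 57.7 ± 6.98 in WKY (0.065 ± 0.10; adjusted p = 0.763). Gnal and Gnai1, which encode a Gs-like and a Gi alpha subunit, had differences of -0.26 ± 0.095 (1384229_at; adjusted p = 0.124) and -0.22 ± 0.083 (adjusted p = 0.137), while the other Gnal probe set differed by 0.045.

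**Figure D4:**
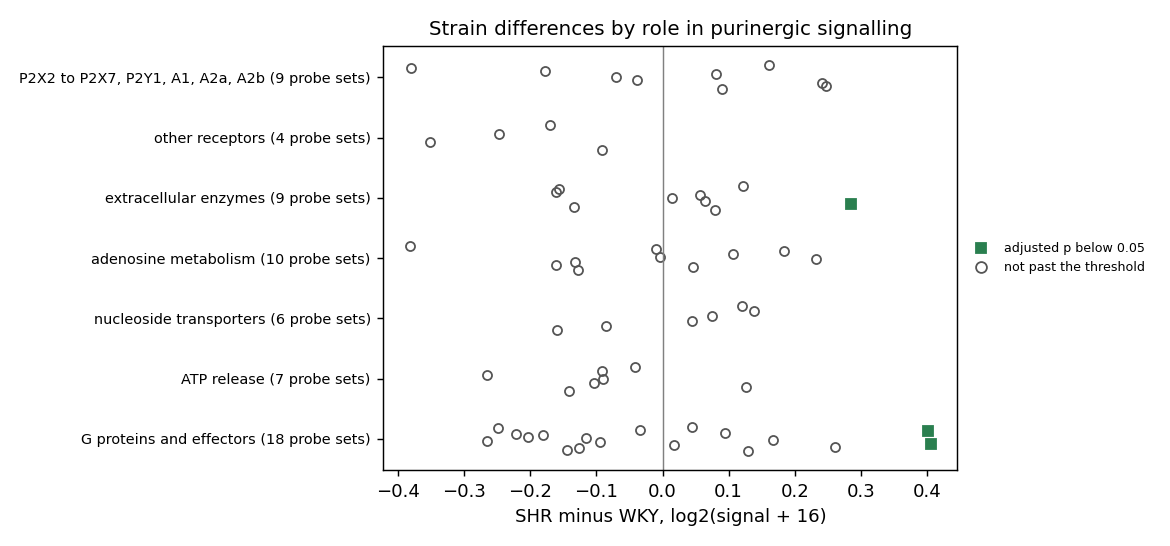
Difference of SHR minus WKY on log2(signal + 16) for each tested probe set, grouped by role in purinergic signalling; filled squares passed the limma threshold and open circles did not. The 9 probe sets of the receptors described lie between -0.38 and 0.25, and the 3 squares are Enpp2 and Gnas.

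Other marker lists gave the setting of these values. Of the NTS markers, Th, Dbh, Phox2a, Hoxa5 and Prlh were bright enough to be tested, with means from 52.1 to 1046 across the strains, and Tlx3 was dim. Prlh was lower in SHR, a call that held in 10 of 23 alternatives. Of 14 astrocyte probe sets and 8 endothelial ones none passed, of 12 oligodendrocyte ones 2 were lower (both Mobp), of 13 neuronal ones 1 was higher (Snap25, in 9 of 23 alternatives), and of 6 striatal ones 1 was lower (Ppp1r1b). The background over all probe sets tested is 2.06% higher and 2.20% lower. The third Mobp probe set, 1370500_a_at, differed by -0.022 (adjusted p = 0.925). Of the 12 oligodendrocyte probe sets, 4 had differences above 0 and 8 below.

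Across the 9 tested receptor probe sets and the alternatives in processing, 195 of 201 differences kept their sign and 1 of 201 passed, that of P2rx2 without WKY 3. The filters, the variance models, the replicate block and 1 probe set for each gene leave the difference itself unchanged. Signs had to hold in these alternatives, so part of the 195 was fixed in advance.

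**Figure D5:**
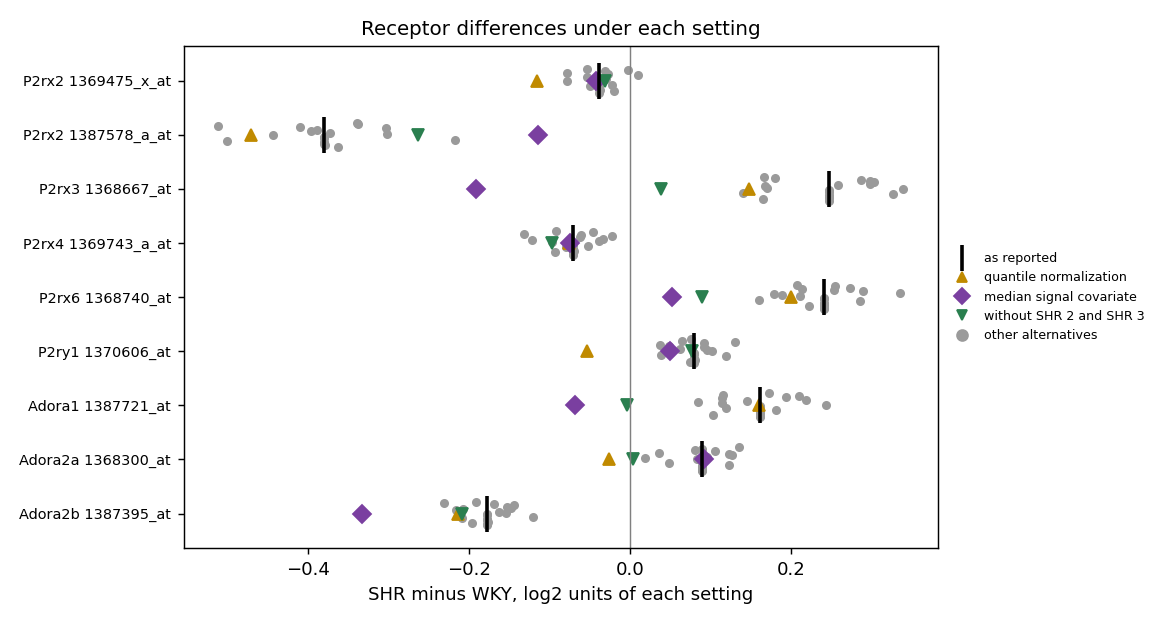
Difference of SHR minus WKY for the 9 tested receptor probe sets under each alternative (grey dots and coloured marks) and as reported (black bars); the scale is the log2 scale of each alternative. The median-signal covariate moves P2rx3 from 0.25 to -0.19 and Adora1 from 0.16 to -0.069, and P2rx4 stays between -0.13 and -0.023.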

How the data were processed

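RNA of the NTS of 5 SHR and 5 WKY samples was amplified with a MessageAmpII kit and hybridised to 1-colour arrays, per the labels' protocols. The authors deposited 1 linear intensity for each probe set and array, and the submitters' processing notes name GCOS 1.2. How background was set is not given here. From the values, the authors' scaling set the mean intensity, trimmed by 2% at each end, to 100.0 on all arrays. No pair of arrays shared more than 2 identical values.

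The 57 control probe sets were left out. A probe set was tested if at least 5 of 10 arrays reached that array's 40th percentile (18846 of 31042). limma 3.58.1 (R 4.3.3) was fitted on log2(signal + 16) with strain as the single term and an intensity trend, with Benjamini-Hochberg adjustment over all probe sets tested. The model was tested on simulated data. Symbols were updated through Entrez identifiers to RefSeq assembly GRCr8 (20826 probe sets with 1 symbol). Positions are not printed.

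Samples were grouped by title. Where a title carries no number, the sample is called 1. The table gives no batch. The members and lists were chosen with earlier results of these data known. Named were all members, other purinergic probe sets past the threshold, the smallest p of each role, and markers past the threshold. Other genes were named after their values were seen, namely P2rx1, P2ry4, P2ry6, P2ry14, Adk, Nt5e, Gnal, Gnai1 and the markers that did not pass (Aif1 1369489_at, Cx3cr1 and Ttr among them). The 23 alternatives were other scalings, offsets of 1 and 64, no filter or a 60th percentile filter, other variance models, weighting of arrays, a block for the replicate number, a median-signal covariate, 1 probe set for each gene, and leaving out arrays.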

Additional observations from a re-analysis of the deposited data

Results flagged for a closer look

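Of 98 sets of 5 arrays looked at, 3 held an array far from the others. P2ry4, which encodes another P2Y receptor, had a signal of 20.9 in SHR 3 on its single probe set, against 5.97 to 6.39 in the other SHR arrays. That probe set was below the 40th percentile on every array. C1qa, a microglia marker, had 499 in WKY 2, against 596 to 624 in the other WKY arrays. Sostdc1, a choroid plexus marker, had 33.3 in WKY 5, against 27.2 to 28.1 in the other WKY arrays. About 1 set in 20 is marked so by chance.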

How the results depend on the processing

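The count of receptor probe sets past the threshold was 0 in 22 of 23 alternatives and 1 without WKY 3, so it ran from 0 to 1 when 1 array was left out. The limma count over all probe sets, 803, was 1214 with the replicate block, 206 with the median-signal covariate, 512 without SHR 2 and SHR 3 and 438 of 10668 with 1 probe set for each gene. With 1 array left out it ran from 480 (without WKY 4) to 976, and was 481 without WKY 5. The count over the other purinergic genes, 3, was 1 without the intensity trend and 1 with the covariate, and ran from 1 (without WKY 4) to 3 with 1 array left out. Among tested probe sets that the text names, signs turned for Adora2a (-0.026), P2ry1 (-0.053), Gnas 1369897_s_at (-0.023), Nt5e (-0.0056) and Ttr (-0.030) with quantile normalization, for P2rx3 (-0.19), Adora1 (-0.069), Slc29a1 (-0.10), Cx3cr1 (-0.037), Gnal 1394575_at (-0.18) and Ttr (-0.60) with the covariate, for Adora1 (-0.0034), Gnal 1394575_at (-0.11) and Ttr (-0.018) without SHR 2 and SHR 3, for Gnal 1394575_at (-0.019) and Ttr (-0.0074) with array weights, for Ttr (-0.0029) with an offset of 64, and for P2rx2 1369475_x_at (0.010) without SHR 5, where leaving out 1 array gave -0.078 to 0.010. With 1 array left out, Gnal 1394575_at ran from -0.035 to 0.11 and Ttr from -0.10 to 0.45. The alternatives were not followed for every named marker, nor for the other Lrrc8a probe sets. Among dim receptor probe sets, signs turned for P2rx3 1388077_a_at (-0.15) with the covariate, for Adora1 1370584_a_at (-0.0061) with quantile normalization, for Adora2a 1368301_at (-0.00018) without SHR 5, and for P2rx7 in several (-0.28 to 0.10). The cause was not tested, and the covariate is partly confounded with strain. Same-numbered arrays had correlated deviations of 0.038 to 0.28, not over 0.1 in every pair, and 6 of 10 arrays correlated best with their own number, a hint from the data only, so the replicate block is not used; with it 0 receptor probe sets passed. Low signal is a limit: 7 of 16 receptor probe sets were too dim to test.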

Other observations

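P2rx1, the ATP channel of platelets and smooth muscle, had a probe set whose strains did not overlap, although both its probe sets lay under the 40th percentile on all 10 arrays. It was named after its values were seen. On 1385148_at its signals were 19.6, 15.7, 26.3, 15.2 and 14.3 on SHR arrays 1 to 5, compared with 3.04, 2.07, 3.24, 10.9 and 9.20 on WKY arrays 1 to 5. With no filter the log2 difference was 0.67 ± 0.14 (limma adjusted p = 0.0281 over 31042 probe sets), and over the alternatives, all without the filter, the adjusted p ran from 0.0238 to 0.116 and was below 0.05 in 11 of 21. The second probe set, 1369178_a_at, had 11.2 to 24.6 in SHR and 2.47 to 17.7 in WKY, an overlap. Of the 12196 probe sets below the filter, 489 had strains that did not overlap (4.01%), 433 of them higher and 56 lower in SHR, so a dim signal higher in SHR was common on these arrays. Of the 22 dim probe sets of other purinergic genes, 2 did not overlap, those of P2rx1 and P2ry4, both higher in SHR. The size of the P2rx1 difference rests on the offset, with 0.24 at an offset of 64 and 1.70 at an offset of 1.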
